A study of Mus musculus with 12 samples.

Results

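Group 3 innate lymphoid cells (ILC3s) sorted from the intraepithelial layer (IEL) of the small intestine were compared with ILC3s sorted from the lamina propria (LP) of mice raised on normal milk. The comparison used 6 of the 12 libraries of the series, 3 of IEL and 3 of LP. Expression is given as FPKM, fragment counts normalised to the length of the transcript and to a scale factor of the library. Genes were kept when their FPKM was 1 or more in at least 3 of these 6 libraries. This held for 11194 of the 23284 genes in the table. All mice were of the HR-1 hairless strain and were 18 weeks old, and those used here were offspring nursed by mothers kept on normal powdered chow (ND). The other 6 libraries, also 3 of IEL and 3 of LP, share no sample with the ND libraries. They came from pups of ND mothers that were swapped after birth to mothers fed chow enriched with palmitic acid (PA milk). The paper starts this chow near labour in its results and directly after birth in its methods.

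The cells were not a pure line but a sort by surface antigens: negative for lineage antigens and positive for Thy1.2, CD25, Nrp1 and a further antigen. The methods of the study give this antigen as CD4 and a legend gives it as CD45, so which of them was used is not settled here. The layers were also prepared differently. IEL cells were shaken free with EDTA and DTT, whereas LP cells were released afterwards from the remaining tissue with collagenase and DNase, so layer and preparation cannot be told apart. The sources used here do not say whether a library holds cells of 1 mouse or of several, nor whether IEL and LP libraries of the same number share mice, and the p-values therefore measure only the spread between these libraries.

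ILC3s are lymphocytes without antigen receptors. In the gut they answer to interleukin 23 and interleukin 1 and secrete interleukin 22 and interleukin 17, which act on the epithelium. The intraepithelial layer lies among the enterocytes that absorb fat, sugars and amino acids, whereas the lamina propria beneath holds the venules, lymphatics and stromal cells through which lymphocytes enter and leave the gut.

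Each ND library held 9376529 to 11710874 scaled counts, and the spacing of low values put its depth at an estimated 9.33 M to 14.1 M reads. A pair of libraries stood apart from the rest. IEL replicate 2 (IEL 2) had 7863 genes at 1 FPKM or more and LP replicate 1 (LP 1) had 9595, against 11121 to 11282 in the other libraries, and 2239 and 1362 of the tested genes were listed at 0 in them. Spearman correlations over the tested genes were 0.7 to 0.9 within IEL, 0.69 to 0.8 within LP and 0.52 to 0.75 between the layers. Below, the 3 values of a layer are given in the order of replicates 1, 2 and 3. Most list medians are also given without IEL 2 or LP 1. Differences and p-values of single ND genes are from all 6 libraries.

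The label of the cells was checked against genes of the gate and of ILC3s, none of which passed the limma test at an adjusted p of 0.05. Il7r, the interleukin 7 receptor on which innate lymphoid cells depend, was listed at 28.5, 49.3 and 39.5 FPKM in the IEL libraries and 0, 26.7 and 10.6 in the LP libraries, and the layers did not overlap (log2 difference 2.52 ± 1.14, adjusted p = 0.382). Il23r, the receptor for interleukin 23, was listed at 1.47, 0 and 6.97 FPKM in IEL and 2.85, 22.8 and 0.38 in LP. Thy1, which encodes the sorted antigen Thy1.2, was listed at 3.03, 0 and 3.95 FPKM in IEL and 0, 14.2 and 5.11 in LP, and was thus at 0 in both of the libraries that stood apart.

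Il2ra, encoding CD25, was listed at 5.78, 0 and 6.6 FPKM in IEL and 1.35, 82.4 and 2.83 in LP. Cd4 was listed at 22.7, 1.89 and 23 FPKM in IEL and 24.1, 63.3 and 13.5 in LP. Ptprc, encoding the common leukocyte antigen CD45, was listed at 37.1, 34.4 and 61.4 FPKM in IEL and 76.8, 73.8 and 24.5 in LP, and no library lacked it. Nrp1 was listed at 2.39, 2.31 and 4.47 FPKM in IEL and 8.51, 31.5 and 19.1 in LP, with each LP library above each IEL library but without passing the test (log2 difference -2.22 ± 0.81, adjusted p = 0.262). The gate list of Thy1, Il2ra, Nrp1 and both Cd4 and Ptprc, of which the sort used at least 1, had a median log2 difference of -1.28 (-0.26 without IEL 2 and -1.83 without LP 1).

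Cytokine transcripts varied widely within each layer. Il22 was listed at 81.5, 0.177 and 144 FPKM in IEL and 0.164, 4339 and 198 in LP. Il17a, encoding interleukin 17A, was listed at 8.15, 0 and 12.8 FPKM in IEL and 0, 217 and 43.5 in LP. For both genes IEL 2 and LP 1 were below 0.2 FPKM while LP 2 was highest. Of 13 tested ILC effector genes, 0 passed the test, their median log2 difference was -1.49 (-0.54 without IEL 2 and -1.71 without LP 1), and Tnf alone had layers that did not overlap.

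Transcripts of T cells, which the lineage antigens are meant to remove, were present. Cd3e, a chain of the T cell receptor complex, was listed at 23.5, 0 and 87.5 FPKM in IEL and 25.8, 39.3 and 48.9 in LP, which left IEL 2 as the library without it. Cd8b1 was listed at 41.9, 0.0645 and 101 FPKM in IEL and 0, 0.196 and 0.398 in LP and did not reach the 3 libraries needed for a test. No library bore out the ILC3 label in full by the genes given here. IEL 1, IEL 3, LP 2 and LP 3 held Cd3e, and IEL 1 and IEL 3 also held Cd8b1 at 41.9 and 101 FPKM. The libraries that stood apart lacked several genes of the label. IEL 2 had Thy1, Il2ra, Il23r and Il17a at 0 and Il22 and Kit, the stem cell factor receptor, at 0.177 and 0.0314 FPKM, but held Il7r and Ptprc. LP 1 had Il7r, Thy1 and Il17a at or near 0 and Il22 below 0.2 FPKM, but held Kit at 13.8 FPKM and Il23r at 2.85 FPKM.

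**Figure D1:**
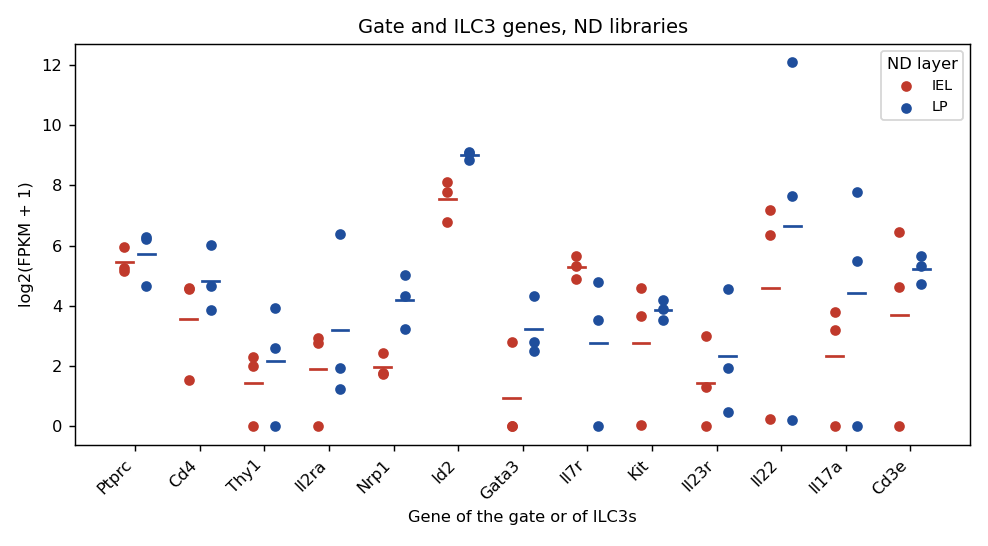
Levels of 13 gate and ILC3 genes as log2(FPKM + 1), 1 point per ND library and a bar at the mean of each layer. Id2 and Nrp1 show each LP library above each IEL library, and Il7r the opposite, while the Il22 points of both layers spread widely.

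Of the tested genes, 43 were higher in IEL than in LP and 64 were lower at an adjusted p-value under 0.05 by limma on log2(FPKM + 1), which is 0.384% and 0.572% of the 11194 genes tested. Those higher in IEL held 5 of 24 tested genes of the enterocyte lipid list, 3 of 24 of the brush border list and 3 of 21 of the enterocyte transport list. Those lower in IEL held 5 of 13 tested endothelial markers, 3 of 29 immediate early genes and 3 of 19 chemokine ligands. The layers did not overlap for any of the 107 called genes. A gene under 1 FPKM in all libraries of 1 layer was tested only if all 3 libraries of the other reached 1, so the filter itself fixed that its layers did not overlap. This was so for 34 of the genes lower in IEL and 14 of those higher, and for 211 and 87 of all tested genes. Over all tested genes the 3 IEL libraries lay above the 3 LP libraries for 10.7% and below them for 9.9%, and with 3 libraries against 3 an exact permutation test cannot go below p = 0.1. At an unadjusted p-value below 0.05 the shares were 7.51% higher and 6.26% lower. The log2 difference had a median of -0.06 over all tested genes and was above 0 for 47.7% of them.

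These counts depended on which libraries were in the fit. They were 7 higher and 30 lower without IEL 1, 18 and 57 without IEL 2, 3 and 22 without IEL 3, 32 and 86 without LP 1, 3 and 7 without LP 2, and 14 and 22 without LP 3. Without both IEL 2 and LP 1, an alternative added after seeing the data, 59 were higher and 126 lower. The call held in all 6 fits without 1 library for 9 genes, namely Apoa1 and Apoc3 among those higher in IEL and Plvap, Madcam1, Hspb1, Hspa1b, Lrg1, Darc and 8430408G22Rik among those lower in IEL. It held in none of these 6 fits for Rbp2, Cdhr5, Plac8, Slc13a2, Guca2b, H2-Q1, Ifitm2 and S100a6, among others. None of the 107 genes changed direction in any of these fits, which was fixed in advance because their layers did not overlap. In a limma-voom fit on the scaled counts Hspa1b alone passed.

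**Figure D2:**
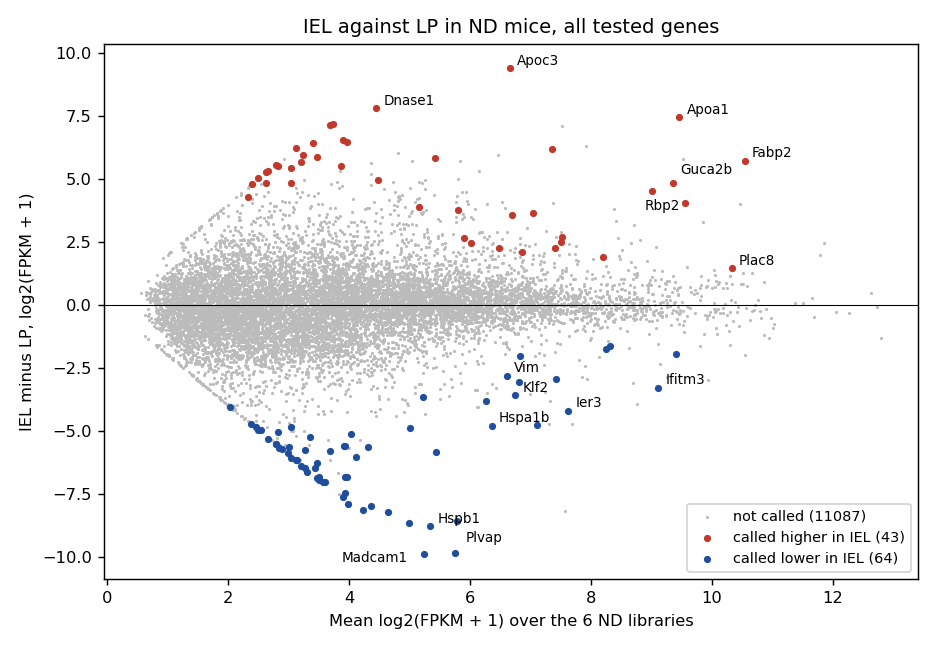
Each of the 11194 tested genes by its mean log2(FPKM + 1) over the 6 ND libraries and its log2 difference, IEL minus LP. The 43 genes called higher in IEL are red, the 64 called lower are blue and the others are grey.

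**Figure D3:**
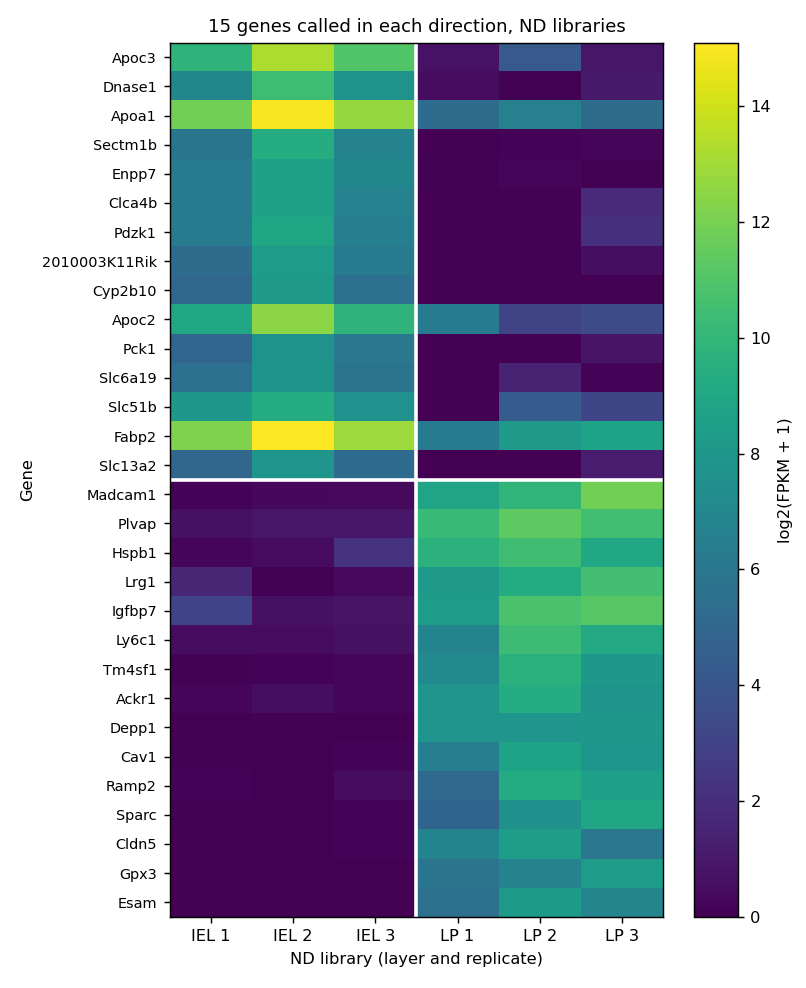
Log2(FPKM + 1) in each ND library of the 15 called genes with the largest difference in each direction. Each upper gene is stronger in all 3 IEL libraries than in any LP library, and IEL 2 is the highest column for Apoc3, Apoa1 and Fabp2, whereas no lower gene exceeds 7.2 FPKM in IEL.

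The largest difference towards IEL was in Apoc3, and 4 other called genes of the enterocyte lipid list act in packaging and carrying fat and retinol. Apoc3, an apolipoprotein that restrains the clearance of triglyceride-rich particles, was listed at 891, 9735 and 2010.2 FPKM in the IEL libraries and 0.685, 17.5 and 0.914 in the LP libraries (log2 difference 9.38 ± 1.07 SE, adjusted p = 0.00863). Apoa1, the main protein of high-density lipoprotein and a component of chylomicrons, was listed at 3754, 31904 and 6632 FPKM in IEL and 39.3, 93.9 and 39.8 in LP (log2 difference 7.43 ± 0.73, adjusted p = 0.00489). The genes are neighbours on mouse chromosome 9 in the GENCODE vM21 annotation of mm10 (GRCm38), Apoa1 at chr9:46228580-46230466, plus strand and Apoc3 at chr9:46232933-46235636, minus strand. Every IEL library exceeded every LP library by more than an order of magnitude for both, and IEL 2 was the highest.

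Fabp2, the intestinal fatty acid binding protein of the enterocyte cytoplasm, was listed at 4726, 35069 and 7505 FPKM in IEL and 70, 283 and 432 in LP (log2 difference 5.71 ± 0.84, adjusted p = 0.0225), at chr3:122895072-122899506, plus strand. Its mean FPKM was 60.2 times higher in IEL. Apoc2, the cofactor of lipoprotein lipase, was listed at 503, 5766 and 916 FPKM in IEL and 71.9, 7.46 and 10.5 in LP (log2 difference 6.17 ± 1.02, adjusted p = 0.0358), and Rbp2, which binds retinol in enterocytes, at 1244, 6341 and 1919 FPKM in IEL and 51.7, 345 and 67 in LP (log2 difference 4.53 ± 0.79, adjusted p = 0.0432). Fabp1, the fatty acid binding protein shared with liver, was listed at 4642, 6532 and 5268 FPKM in IEL and 2.03, 2139 and 149 in LP. Its layers did not overlap either, but its LP values differed widely among themselves and it did not pass (log2 difference 5.78 ± 1.89, adjusted p = 0.204).

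Of the 24 enterocyte lipid genes, all tested, Apoc3, Apoa1, Apoc2, Fabp2 and Rbp2 passed the test, and 21 had all IEL libraries above all LP libraries, 1 of them fixed by the filter. The list's median log2 difference was 3.98 (3.53 without IEL 2 and 2.46 without LP 1). Its summed expression was 2.49%, 12.3% and 3.83% of all FPKM in IEL and 0.0661%, 0.547% and 0.212% in LP. Genes that did not pass included Apoa4, which encodes another chylomicron apolipoprotein (log2 difference 7.08 ± 1.38, adjusted p = 0.0547), Apob, the structural protein of chylomicrons (log2 difference 3.43 ± 0.89, adjusted p = 0.106), and Mttp, which loads lipid onto it (log2 difference 4.0 ± 1.4, adjusted p = 0.243). A pair of lipid uptake receptors went the other way. Scarb1 was listed at 2.7, 0.0393 and 11.4 FPKM in IEL and 49.3, 57.1 and 34.1 in LP (log2 difference -3.69 ± 0.95, adjusted p = 0.104), and Cd36 had a log2 difference of -2.01 with overlapping layers (adjusted p = 0.359).

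Other genes high in IEL act at the luminal membrane. Pdzk1, a scaffold protein that anchors transporters there, was listed at 71.2, 483 and 88.9 FPKM in IEL and 0.0333, 0.0729 and 3.16 in LP (log2 difference 6.46 ± 0.94, adjusted p = 0.0218). Enpp7, the alkaline sphingomyelinase that digests dietary sphingomyelin, was listed at 70.2, 399 and 122 FPKM in IEL and 0.062, 0.136 and 0.0828 in LP (log2 difference 7.12 ± 0.80, adjusted p = 0.00863). Both were under 4 FPKM in every LP library. A fitted difference from a layer that is near 0 depends on the pseudocount of 1 and gives no limit on the true ratio, which holds for each such gene below.

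Cdhr5, a protocadherin that links the tips of microvilli, was listed at 191, 929 and 252 FPKM in IEL and 22.2, 21.1 and 53.7 in LP (log2 difference 3.55 ± 0.63, adjusted p = 0.046). Calml4, a calmodulin-like protein of the same intermicrovillar complex, was listed at 459, 623 and 618 FPKM in IEL and 138, 178 and 139.8 in LP (log2 difference 1.89 ± 0.28, adjusted p = 0.0232). Plac8, named among the brush border genes by its level alone, was listed at 1933, 2537 and 1934 FPKM in IEL and 759, 867 and 710.5 in LP (log2 difference 1.45 ± 0.25, adjusted p = 0.0432). Its mean FPKM was 2.74 times higher in IEL, the smallest difference among the called genes that were higher in IEL.

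Of the 24 brush border genes tested, Pdzk1, Plac8 and Cdhr5 passed, and 22 had all IEL libraries above all LP libraries, 1 of them fixed by the filter. Their median log2 difference was 3.64 (3.11 without IEL 2 and 2.81 without LP 1), and their summed expression was 0.532%, 1.18% and 0.625% of all FPKM in IEL and 0.132%, 0.194% and 0.189% in LP. Alpi, the intestinal alkaline phosphatase, was listed at 239.5, 1222 and 302 FPKM in IEL and 0.271, 15 and 71.5 in LP without passing (log2 difference 5.29 ± 1.31, adjusted p = 0.0964), and Vil1, which bundles actin in microvilli, at 138, 625 and 203 FPKM in IEL and 30, 42.7 and 88.1 in LP (log2 difference 2.4 ± 0.61, adjusted p = 0.103).

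Transporters of nutrients and bile acids followed. Slc6a19, the carrier of neutral amino acids, was listed at 45.6, 225 and 55.7 FPKM in IEL and 0.0323, 1.77 and 0.0863 in LP (log2 difference 5.85 ± 0.88, adjusted p = 0.0236). Slc13a2, a carrier of dicarboxylates and citrate, was listed at 30.6, 236 and 37.1 FPKM in IEL and 0, 0 and 1.21 in LP (log2 difference 5.66 ± 0.98, adjusted p = 0.0432). Ostb (Slc51b), a subunit of the exporter that passes bile acids to the blood, was listed at 262, 639.6 and 202 FPKM in IEL and 0, 19.7 and 7.91 in LP (log2 difference 5.83 ± 1.03, adjusted p = 0.0434). Its partner subunit Osta (Slc51a) was listed at 233, 571 and 225 FPKM in IEL and 0.162, 27.3 and 28.7 in LP and did not pass (log2 difference 4.97 ± 1.15, adjusted p = 0.0817). Of 21 transport genes tested 3 passed, all higher in IEL, 13 had all IEL libraries above all LP libraries, 1 of them fixed by the filter, and the median log2 difference was 3.19 (2.36 without IEL 2 and 2.61 without LP 1). The iron exporter Slc40a1 was among the few with a difference below 0 (log2 difference -0.95 ± 0.79, adjusted p = 0.666).

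Enzymes of metabolism and detoxification were also called. Cyp2b10, a cytochrome P450 induced by xenobiotics, was listed at 31.8, 281 and 44.3 FPKM in IEL and 0, 0.0474 and 0 in LP (log2 difference 6.2 ± 0.97, adjusted p = 0.0284). It was the 1 gene to pass among 26 xenobiotic genes tested, of which 17 had all IEL libraries above all LP libraries, 2 of them fixed by the filter. The list's median log2 difference was 3.41 (3.37 without IEL 2 and 1.67 without LP 1). Adh1, an alcohol dehydrogenase that also oxidises retinol, was listed at 535, 793 and 767 FPKM in IEL and 0.192, 34.3 and 33.2 in LP and came just short of the threshold (log2 difference 5.93 ± 1.16, adjusted p = 0.0547). Pck1, which commits carbon to glucose synthesis, was listed at 28.8, 205 and 66.1 FPKM in IEL and 0, 0 and 0.76 in LP (log2 difference 5.95 ± 0.91, adjusted p = 0.0248). Fbp2, a fructose bisphosphatase of the same pathway, was listed at 450.3, 448 and 381 FPKM in IEL and 60.7, 88.1 and 82.3 in LP (log2 difference 2.47 ± 0.29, adjusted p = 0.0104), and Arg2, the mitochondrial arginase, at 453, 379.6 and 575 FPKM in IEL and 36.4, 91.4 and 108 in LP (log2 difference 2.68 ± 0.44, adjusted p = 0.0358). Both of these last genes were also well expressed in LP, and the IEL values of Fbp2 lay close together.

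Several called genes encode secreted or surface proteins. Dnase1, a secreted nuclease, was listed at 119, 1333 and 211 FPKM in IEL and 0.394, 0.0719 and 1.14 in LP (log2 difference 7.78 ± 0.89, adjusted p = 0.00863). Sectm1b was listed at 56.8, 647 and 109 FPKM in IEL and 0.0341, 0.112 and 0.182 in LP (log2 difference 7.18 ± 0.94, adjusted p = 0.0156), AI747448 (Clca4b) at 69.9, 404 and 104 FPKM in IEL and 0.0258, 0 and 2.66 in LP (log2 difference 6.54 ± 0.89, adjusted p = 0.0167) and 2010003K11Rik at 38.9, 313 and 74.8 FPKM in IEL and 0, 0 and 0.502 in LP (log2 difference 6.42 ± 0.91, adjusted p = 0.0198). Guca2b, the precursor of the intestinal hormone uroguanylin, was listed at 1474, 10436 and 2817 FPKM in IEL and 277, 33.4 and 191 in LP (log2 difference 4.84 ± 0.88, adjusted p = 0.0485). The lowest IEL library of these genes was IEL 1 in each case, and it was still above every LP library.

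Mitochondrial genes tended towards IEL with smaller differences. Of 79 respiratory chain subunits tested, 40 had all IEL libraries above all LP libraries and 0 the reverse, and their median log2 difference was 0.65 (0.70 without IEL 2 and 0.44 without LP 1). Cox7a1, an alternative subunit of cytochrome c oxidase, was the 1 that passed, at 304, 907 and 362 FPKM in IEL and 27.8, 16.9 and 96.7 in LP (log2 difference 3.65 ± 0.66, adjusted p = 0.0485). Of 24 genes of fatty acid oxidation 14 had all IEL libraries above all LP libraries with a median log2 difference of 1.35 (1.4 without IEL 2 and 1.0 without LP 1), but 0 passed the test. The most abundant was Hadh, a dehydrogenase of short-chain fatty acid oxidation, at 363, 724 and 369 FPKM in IEL and 37.9, 132 and 126 in LP (log2 difference 2.41 ± 0.53, adjusted p = 0.069).

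Markers of epithelial cells as such moved with these genes. Of 20 pan-epithelial genes tested, 0 passed and 13 had all IEL libraries above all LP libraries, with a median log2 difference of 1.4 (1.55 without IEL 2 and 1.52 without LP 1). Their sum was 1.99%, 1.28% and 1.53% of all FPKM in IEL and 0.531%, 0.476% and 1.0% in LP, none was at 0 in all 6 libraries, and Epcam, the epithelial adhesion molecule, was listed at 849.9, 1133 and 686 FPKM in IEL and 53.3, 134 and 379.6 in LP (log2 difference 2.63 ± 0.62, adjusted p = 0.0856). Epcam and keratin transcripts were therefore present in both layers of the sort. In bulk samples, fewer cells of a type and less RNA per cell cannot be told apart, and the part of epithelial cells in the difference between the layers was not tested.

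Not all epithelial lineages moved towards IEL. Goblet cell genes had a median log2 difference of -2.69 (-0.93 without IEL 2 and -2.07 without LP 1) over 14 tested genes, of which 0 passed and 2 had all LP libraries above all IEL libraries, Clca1 fixed to do so by the filter. Of all tested genes, 9.9% had all LP libraries above all IEL libraries. Spink4, a goblet cell peptide, was listed at 599, 1.69 and 835 FPKM in IEL and 10877, 319 and 1411 in LP and Tff3, the trefoil factor of mucus, at 1070.0, 17.2 and 2208 FPKM in IEL and 6695, 773 and 3989 in LP. Both were lowest in IEL 2 and highest in LP 1. Of 16 Paneth cell and Reg genes tested 0 passed. Reg1 and Reg3a had all IEL libraries above all LP libraries, as had 10.7% of all tested genes. The median log2 difference of these 16 genes, -0.18 (1.12 without IEL 2 and 0.77 without LP 1), changed sign without either library and, to 0.08, under scaling on pan-leukocyte genes. Reg3b, an antibacterial lectin and the most abundant of them, was listed at 22959, 2728 and 10526 FPKM in IEL and 308, 7447 and 1704 in LP (log2 difference 2.46 ± 1.12, adjusted p = 0.382).

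**Figure D4:**
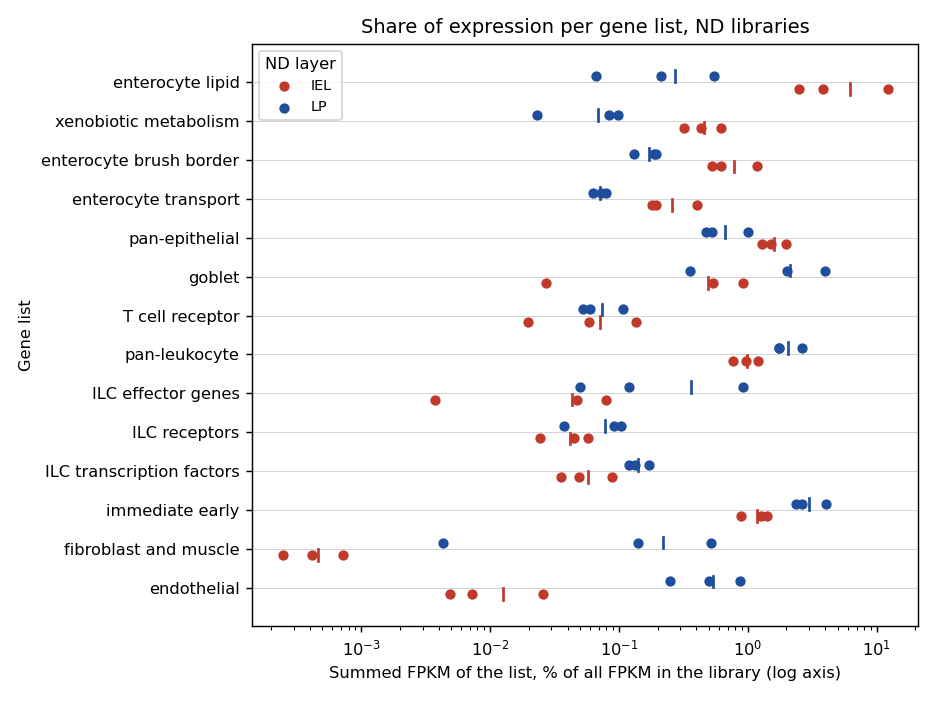
Summed FPKM of 14 gene lists as a percent of all FPKM on a log axis, 1 point per ND library and a tick at the mean of each layer. The enterocyte lipid list holds 2.49% to 12.3% in IEL against 0.0661% to 0.547% in LP, and the endothelial list 0.25% to 0.873% in LP against 0.00488% to 0.0259% in IEL.

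Among genes lower in IEL, Madcam1 and Plvap, of the venules through which lymphocytes enter the gut, had the largest differences. Madcam1, the mucosal addressin that binds the integrin α4β7 of gut-homing lymphocytes, was listed at 0.106, 0.257 and 0.321 FPKM in the IEL libraries and 450.0, 959 and 3765 in the LP libraries (log2 difference -9.91 ± 0.73, adjusted p = 0.00097), at chr10:79664559-79668537, plus strand. Plvap, which forms the diaphragms of endothelial fenestrae and caveolae, was listed at 0.57, 0.906 and 0.862 FPKM in IEL and 1158, 2633 and 1455 in LP (log2 difference -9.86 ± 0.43, adjusted p = 6.18e-05), at chr8:71497765-71511752, minus strand. It had the smallest adjusted p-value of all tested genes. Darc (Ackr1), the venular receptor that binds and presents chemokines, was listed at 0.203, 0.492 and 0.205 FPKM in IEL and 236, 640.1 and 228 in LP (log2 difference -7.98 ± 0.61, adjusted p = 0.00108). In each of the 3 genes all IEL libraries were below 1 FPKM and all LP libraries above 200.

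Nkx2-3, a homeobox factor needed for the normal vessels of gut lymphoid tissue, was listed at 0 in all 3 IEL libraries and at 87.6, 104 and 63.9 FPKM in LP (limma adjusted p = 0.00863). Emcn, an endothelial sialomucin, was likewise at 0 in IEL and at 28.4, 89.6 and 49.5 in LP (limma adjusted p = 0.0199). Cldn5, the tight junction claudin of endothelium, was listed at 0, 0 and 0.107 FPKM in IEL and 113, 333 and 63.6 in LP (log2 difference -7.03 ± 0.80, adjusted p = 0.00863), and the adhesion molecule Esam at 0.0391, 0.0474 and 0 FPKM in IEL and 47.1, 302 and 117 in LP (log2 difference -6.87 ± 0.84, adjusted p = 0.0122). Sox18, an endothelial transcription factor, was listed at 0.0456, 0 and 0 FPKM in IEL and 53.5, 149 and 93.3 in LP (log2 difference -6.5 ± 0.75, adjusted p = 0.00863).

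Lrg1, a secreted glycoprotein made by venules, was listed at 2.08, 0 and 0.283 FPKM in IEL and 275, 623 and 1512 in LP (log2 difference -8.66 ± 0.73, adjusted p = 0.00197). Igfbp7, secreted by endothelial cells, was listed at 7.2, 0.598 and 0.712 FPKM in IEL and 311, 1733 and 2283 in LP (log2 difference -8.57 ± 0.88, adjusted p = 0.00594). Ly6c1, a surface antigen of endothelium and of some leukocytes, was listed at 0.402, 0.365 and 0.608 FPKM in IEL and 113, 1296 and 543 in LP (log2 difference -8.21 ± 0.84, adjusted p = 0.00594). These 3 genes had their lowest LP value in LP 1, where they still exceeded 100 FPKM. Tm4sf1 was listed at 0.076, 0.0921 and 0.192 FPKM in IEL and 149, 791 and 268 in LP (log2 difference -8.15 ± 0.71, adjusted p = 0.00245) and Ramp2, which partners the receptor of the vascular peptide adrenomedullin, at 0.0969, 0 and 0.391 FPKM in IEL and 34.6, 616 and 373 in LP (log2 difference -7.45 ± 1.05, adjusted p = 0.0191).

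Genes of caveolae, the flask-shaped membrane pits abundant in endothelium, were among the calls. Cav1, the main caveolin, was listed at 0.0555, 0 and 0.112 FPKM in IEL and 88.8, 427 and 241 in LP (log2 difference -7.64 ± 0.74, adjusted p = 0.0048), and Cav2, its neighbour on chromosome 6, at 0, 0.0688 and 0.0573 FPKM in IEL and 24.6, 106 and 82.2 in LP (log2 difference -5.87 ± 0.85, adjusted p = 0.0217). Of the coat proteins, Prkcdbp (Cavin3) was listed at 1.89, 0 and 0 FPKM in IEL and 34.4, 297 and 414 in LP (log2 difference -6.84 ± 1.02, adjusted p = 0.0232) and Sdpr (Cavin2) at 0, 0.0548 and 0.0456 FPKM in IEL and 25.9, 207 and 69.2 in LP (log2 difference -6.15 ± 0.92, adjusted p = 0.0232). The caveolar genes were grouped after their values were seen, so their shared direction is a description.

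Of 16 endothelial markers 13 were tested, and Plvap, Cldn5, Esam, Ccl21a and Emcn passed. Of these 13, Plvap, Cldn5, Esam, Emcn, Ccl21a, Flt1, Tek and Tie1 were under 1 FPKM in all IEL libraries, so that the filter fixed their lack of overlap. In the other 5, Pecam1, Fabp4, Egfl7, Cdh5 and Eng, every LP library was also above every IEL library, and 0 of them passed. The 3 markers not tested were Kdr, at 0, 0.0149 and 0 FPKM in IEL and 0, 15.5 and 6.99 in LP, Lyve1, at 0, 0 and 0 FPKM in IEL and 0, 5.82 and 34 in LP, and Prox1, at 0, 0 and 0 FPKM in IEL and 0, 1.53 and 0 in LP, so LP 1 was at 0 for each. The median log2 difference of the tested markers was -4.61 (-4.51 without IEL 2 and -5.01 without LP 1), a description that the same filter shaped. The sum of the list, which needed no filter, was 0.00722%, 0.0259% and 0.00488% of all FPKM in IEL and 0.25%, 0.873% and 0.502% in LP. No marker of the list was at 0 in all 6 libraries. Pecam1, the pan-endothelial antigen CD31, was listed at 11.1, 1.05 and 12.3 FPKM in IEL and 85.9, 229.8 and 113 in LP and missed the threshold narrowly (log2 difference -4.25 ± 0.79, adjusted p = 0.0516). Fabp4, a fatty acid binding protein of capillaries and fat cells, was not absent from IEL at 30.5, 168 and 4.35 FPKM, against 397, 1638 and 842 in LP (log2 difference -4.75 ± 1.1, adjusted p = 0.0811).

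Stromal and matrix genes were mostly too low to test. Sparc, a matrix protein, was listed at 0.0616, 0 and 0.0931 FPKM in IEL and 27.6, 193 and 487 in LP (log2 difference -7.05 ± 1.04, adjusted p = 0.0232) and was the 1 of 8 tested fibroblast and muscle genes to pass, with a list median of -3.48 (-3.37 without IEL 2 and -5.44 without LP 1). Sparc, Pdgfrb and Rgs5 of these were tested through LP alone. Acta2, the smooth muscle actin, was listed at 1.84, 0.0496 and 0.0413 FPKM in IEL and 0.0917, 242 and 1286 in LP, which set LP 1 apart from LP 2 and LP 3 rather than LP from IEL (log2 difference -5.58 ± 2.23, adjusted p = 0.313). Other matrix and plasma-type genes passed. Timp3, an inhibitor of matrix proteases, was listed at 0.0288, 0.0523 and 0.363 FPKM in IEL and 20.2, 96.5 and 86.2 in LP (log2 difference -5.63 ± 0.88, adjusted p = 0.0277), Serping1, the inhibitor of complement C1, at 0.0799, 0 and 0.805 FPKM in IEL and 30.9, 109 and 267 in LP (log2 difference -6.29 ± 0.91, adjusted p = 0.0218) and Clu, the chaperone clusterin, at 1.73, 0.146 and 0 FPKM in IEL and 56, 454 and 180.3 in LP (log2 difference -6.84 ± 0.88, adjusted p = 0.0156).

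Chemokine ligands split by gene. Ccl21a, the ligand of CCR7 made by lymphatic vessels, was listed at 0, 0.119 and 0.0494 FPKM in IEL and 19.4, 168 and 518 in LP (log2 difference -6.85 ± 1.14, adjusted p = 0.0371). Cxcl10, induced by interferon, was listed at 2.89, 0 and 1.75 FPKM in IEL and 132, 153 and 58.3 in LP (log2 difference -5.6 ± 0.76, adjusted p = 0.0167), and Cxcl1, which draws neutrophils, at 6.86, 0.105 and 0.175 FPKM in IEL and 34.7, 227 and 143 in LP (log2 difference -5.6 ± 1.02, adjusted p = 0.0485). These 3 of 19 tested ligands passed, all lower in IEL. Reads of Ccl21a may be shared with near-identical copies of the gene, so its level is uncertain. Ccl25, the epithelial ligand of the gut-homing receptor CCR9, was listed at 634, 650.0 and 718 FPKM in IEL and 0.339, 211 and 242 in LP with all IEL libraries above LP but without passing, and LP 1 was near 0 (log2 difference 4.02 ± 1.71, adjusted p = 0.342).

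The calls lower in IEL held 3 genes of heat shock proteins, for which no list of their own was set. They are described as single genes, and Hspa1a and Hspa1b are also members of the immediate early list. Hspa1b, an inducible chaperone of the HSP70 family, was listed at 17.8, 12.2 and 14.1 FPKM in the IEL libraries and 412, 455 and 436 in the LP libraries (log2 difference -4.81 ± 0.33, adjusted p = 0.00097), so its mean was 29.5 times higher in LP. Hspa1a, its paralog, was listed at 6.06, 0.12 and 22.8 FPKM in IEL and 278, 428 and 299 in LP (log2 difference -5.85 ± 0.96, adjusted p = 0.0358), and the small heat shock protein Hspb1 at 0.185, 0.337 and 3.55 FPKM in IEL and 824, 1392 and 541 in LP (log2 difference -8.79 ± 0.63, adjusted p = 0.00097), at chr5:135887919-135889563, plus strand. Hspa1a and Hspa1b are near-identical copies, and the counting could split reads between them in either way. Promoters of the 3 genes are shown because heat shock factor is known to induce them, and the core of its binding element has the letters GAANNTTC. The 150 bases before the start are given 5′ to 3′ on the gene's strand from RefSeq on GRCm38.p6, with each core in capitals.
Hspa1b (chr17:34959239-34959388, minus strand): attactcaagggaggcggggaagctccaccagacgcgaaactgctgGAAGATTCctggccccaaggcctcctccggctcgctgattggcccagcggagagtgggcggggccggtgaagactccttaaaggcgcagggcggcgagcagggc
Hspa1a (chr17:34972157-34972306, minus strand): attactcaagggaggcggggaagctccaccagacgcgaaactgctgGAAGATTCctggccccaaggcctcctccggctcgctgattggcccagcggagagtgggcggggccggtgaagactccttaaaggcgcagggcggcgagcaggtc
Hspb1 (chr5:135887769-135887918, plus strand): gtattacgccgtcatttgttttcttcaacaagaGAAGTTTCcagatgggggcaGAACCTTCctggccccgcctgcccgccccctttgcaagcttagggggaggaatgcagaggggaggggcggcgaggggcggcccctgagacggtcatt

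The Hspa1a and Hspa1b stretches were equal at 149 of 150 bases. The core, whose fixed letters read the same on both strands, was searched in 250 bases before the start of each gene with a promoter in the table. It was 1 of 5 motifs searched in this way, and the promoters of these 3 genes also held the ETS motif given below. The core lay in 9 of 47 promoters of genes lower in IEL (19.1%), with these 3 genes among the 9. As heat shock factor is known to induce these 3 genes, their place among the 9 is no independent result. It lay in 4 of 36 of genes higher in IEL (11.1%) and in 563 of 8924 of all tested genes (6.31%). Besides the heat shock genes, the promoters of Madcam1, Darc, 8430408G22Rik, Clec14a, Fhl1 and S100a6 held it among those lower in IEL. The TATA box (TATAAA, on the gene's strand) lay in 17.0% of promoters of genes lower in IEL, 5.56% of those higher and 5.08% of all. The GATA motif (AGATAA, on both strands) lay in 6.38%, 16.7% and 7.44%, the ETS motif (GGAAG, on both strands) in 76.6%, 72.2% and 73.3%, and the HNF4 motif (CAAAGTCCA, on both strands) in 2.13%, 0% and 0.549%. The motifs were picked after the values were seen, their shares were not tested, and a match is a run of letters, not a measured binding site.

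Immediate early genes, which are induced within minutes of stimulation or cell handling, leaned towards LP. Of 29 immediate early genes tested, 15 had all IEL libraries below all LP libraries and 0 the reverse, with a median log2 difference of -1.33 (-0.86 without IEL 2 and -1.32 without LP 1), and Hspa1a, Hspa1b and Ier3 passed. Ier3, an early response gene that modulates cell survival, was listed at 41.5, 63.4 and 34.6 FPKM in IEL and 720.3, 2086 and 406 in LP (log2 difference -4.21 ± 0.57, adjusted p = 0.0167). The most abundant members differed less. Zfp36, which destabilises cytokine mRNA, was listed at 1208, 1687 and 949.6 FPKM in IEL and 3421, 4611 and 1946 in LP (log2 difference -1.33 ± 0.38, adjusted p = 0.136), and Fos, a subunit of AP-1, at 1949, 1700.1 and 1258 FPKM in IEL and 2157, 3279.5 and 2838 in LP (log2 difference -0.76 ± 0.29, adjusted p = 0.283). The sum of the list was 1.42%, 0.885% and 1.26% of all FPKM in IEL and 2.37%, 4.03% and 2.62% in LP. The preparation of the layers differed as given above, and its part in these genes was not tested.

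Outside the list, Cebpd, a transcription factor induced by inflammation, was listed at 26.9, 15.7 and 17.4 FPKM in IEL and 195, 602 and 208 in LP (log2 difference -3.83 ± 0.50, adjusted p = 0.0157), Gadd45g, a stress sensor, at 24.9, 14.6 and 45.8 FPKM in IEL and 177, 1969 and 1073 in LP (log2 difference -4.76 ± 0.83, adjusted p = 0.0432) and Cyr61 (Ccn1), a matrix-associated early gene, at 90.4, 52.7 and 47.3 FPKM in IEL and 408, 401 and 667 in LP (log2 difference -2.95 ± 0.37, adjusted p = 0.014). 8430408G22Rik (Depp1), a target of FOXO factors, was listed at 0, 0.0704 and 0 FPKM in IEL and 237, 232 and 267 in LP (log2 difference -7.91 ± 0.57, adjusted p = 0.00097). Its LP values were close to each other and its IEL values at or near 0.

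A pair of genes that govern whether lymphocytes leave tissue were lower in IEL. Klf2, a transcription factor that drives S1pr1 and keeps lymphocytes circulating and is also strong in endothelium, was listed at 24.6, 19.3 and 56.3 FPKM in the IEL libraries and 309, 532 and 314 in the LP libraries (log2 difference -3.59 ± 0.46, adjusted p = 0.0156), 11.5 times higher in LP by the means. S1pr1, the receptor that guides exit towards sphingosine phosphate, was listed at 3.65, 0.0276 and 3.52 FPKM in IEL and 88.7, 173 and 56.8 in LP (log2 difference -5.12 ± 0.81, adjusted p = 0.0298). Ccr7, the receptor for Ccl21a, had all LP libraries above IEL at 13.8, 0 and 13 FPKM in IEL and 133, 131 and 118 in LP but did not pass (log2 difference -4.43 ± 0.98, adjusted p = 0.0723).

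Klf2 and S1pr1 were the 2 of 18 tested residency and homing genes that passed, and the list's median log2 difference was -0.61 (0.01 without IEL 2 and -0.66 without LP 1). Cd69, another abundant member, which retains lymphocytes in tissue, was listed at 85.9, 0.11 and 203 FPKM in IEL and 75.9, 225 and 137 in LP (log2 difference -2.31 ± 1.66, adjusted p = 0.614). Endothelial markers were also higher in LP, where their sum was 0.25% to 0.873% of all FPKM against 0.00488% to 0.0259% in IEL, and their part in both genes was not tested.

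Interferon-responsive genes differed among themselves. Iigp1, an immunity-related GTPase, was listed at 2.5, 16.2 and 2.42 FPKM in IEL and 369, 242 and 59.4 in LP (log2 difference -4.9 ± 0.86, adjusted p = 0.0434) and was the 1 of 28 tested genes of the interferon list to pass, where 11 had a log2 difference above 0 and 17 below. Within that list 8 genes had all LP libraries above IEL, among them Gbp2, Gbp3, Gbp4, Gbp6 and Gbp7. Oas1a alone had the reverse, where 9.9% and 10.7% of all tested genes lay these ways. Gbp6 and Ifit3 of these 8 were tested through LP alone. The list median was -0.71 (-0.76 without IEL 2 and -0.18 without LP 1), and it was 0.05 among members of 1 FPKM or more in all 6 libraries. Its most abundant member, Irf1, had overlapping layers at 318, 608 and 316 FPKM in IEL and 761, 942 and 341 in LP (log2 difference -0.67 ± 0.44, adjusted p = 0.582). Outside the list, Ifitm3, which blocks viral entry, was called at 165, 299 and 110.1 FPKM in IEL and 924, 3044 and 1831 in LP (log2 difference -3.29 ± 0.50, adjusted p = 0.0248) and Ifitm2 at 462, 324 and 268 FPKM in IEL and 1002, 2086 and 1156 in LP (log2 difference -1.97 ± 0.36, adjusted p = 0.0485).

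Smaller differences were seen in cytoskeletal and calcium-binding genes. Vim, the intermediate filament vimentin of mesenchymal cells and leukocytes, was listed at 33.8, 23.9 and 55.4 FPKM in IEL and 136, 428 and 299 in LP (log2 difference -2.83 ± 0.51, adjusted p = 0.046). Anxa1, an anti-inflammatory annexin, was listed at 7.37, 20.4 and 5.47 FPKM in IEL and 109, 129 and 165 in LP (log2 difference -3.67 ± 0.55, adjusted p = 0.0232), and the calcium-binding S100a6 and S100a11 had log2 differences of -2.05 ± 0.35 and -1.63 ± 0.28 (adjusted p = 0.0419 for S100a6 and 0.0419 for S100a11). Tmem176b was listed at 155, 158 and 180.4 FPKM in IEL and 444, 624 and 634 in LP (log2 difference -1.77 ± 0.28, adjusted p = 0.0294). The IEL values of Tmem176b and S100a11 lay within a narrow band, and no LP library reached down to it.

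Genes of the ILC3 programme itself gave no calls. Of 16 ILC transcription factors tested, 0 passed, with a list median of -1.39 (-0.82 without IEL 2 and -1.41 without LP 1). Id2, Batf, Tcf7 and Runx1 had all LP libraries above all IEL libraries, as had 9.9% of all tested genes. Id2, which holds lymphoid precursors to the innate fate, was listed at 110.2, 217 and 273 FPKM in IEL and 539, 455 and 546 in LP (log2 difference -1.45 ± 0.37, adjusted p = 0.102). Batf, an AP-1 type factor, was listed at 38.8, 35 and 63 FPKM in IEL and 99.3, 145 and 96.8 in LP (log2 difference -1.32 ± 0.39, adjusted p = 0.155). Gata3, shared by ILC2s and ILC3s, was listed at 0, 0 and 5.94 FPKM in IEL and 4.7, 6.01 and 19.3 in LP (log2 difference -2.29 ± 1.04, adjusted p = 0.384), and Tbx21 and Ncr1, of group 1 cells and of some ILC3s, were above 1 FPKM in IEL 1 and IEL 3 alone and were not tested.

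Of 17 ILC receptors tested 0 passed, with a list median of -0.95 (-0.18 without IEL 2 and -1.09 without LP 1). Il7r and Il12rb2, a subunit of the interleukin 12 receptor, were the 2 of these 17 with all IEL libraries above LP, as were 10.7% of all tested genes. Kit, the stem cell factor receptor of many ILC3s, was listed at 11.8, 0.0314 and 23.3 FPKM in IEL and 13.8, 17.4 and 10.5 in LP (log2 difference -1.1 ± 1.18, adjusted p = 0.753). The most abundant receptor, the common gamma chain Il2rg, was listed at 136, 133 and 179 FPKM in IEL and 166, 403 and 412 in LP, with overlapping layers (log2 difference -1.02 ± 0.40, adjusted p = 0.303).

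Markers of other leukocytes were also present without a call. Of 18 T cell receptor genes tested 0 passed, and the median of -0.97 (0.24 without IEL 2 and -1.0 without LP 1) changed sign without IEL 2. Of 14 cytotoxic genes tested 0 passed, with a median of 1.17 (2.34 without IEL 2 and 1.5 without LP 1). Gzmb, the granzyme of killer lymphocytes, was listed at 407, 0 and 649 FPKM in IEL and 17, 14.2 and 15.9 in LP, high in IEL 1 and IEL 3 and at 0 in IEL 2 (log2 difference 1.95 ± 2.1, adjusted p = 0.755). Klrd1, the CD94 chain of natural killer receptors, had all IEL libraries above LP (log2 difference 4.07 ± 0.99, adjusted p = 0.092). Lyz2, a myeloid lysozyme, was highest in LP 1 at 2922, 2060.1 and 82.3 FPKM in IEL and 10376, 281 and 573 in LP, and of 22 myeloid genes 0 passed and 0 had layers that did not overlap. B and plasma cell genes had a median of -1.61 (-0.88 without IEL 2 and -1.57 without LP 1), with 0 of 14 called.

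Pan-leukocyte genes had a median log2 difference of -0.28 (-0.43 without IEL 2 and 0.00 without LP 1) over 30 tested genes and 0 called. Their sum was 0.968%, 0.77% and 1.2% of all FPKM in IEL and 2.66%, 1.76% and 1.76% in LP. Tmsb4x, the actin-binding thymosin β4, made up most of this sum and was listed at 4752, 3591 and 5437 FPKM in IEL and 15467, 9109.5 and 10193 in LP (log2 difference -1.32 ± 0.31, adjusted p = 0.0824). Antigen presentation differed by gene. H2-Q1, a class Ib molecule, was listed at 45.9, 418 and 97.4 FPKM in IEL and 1.91, 2.56 and 5.14 in LP (log2 difference 4.96 ± 0.83, adjusted p = 0.0373) and was the 1 of 18 tested class I genes to pass, while B2m was listed at 2359.6, 7047 and 3389.8 FPKM in IEL and 3261, 5374 and 6056 in LP (log2 difference -0.30 ± 0.43, adjusted p = 0.821). Genes of this family are near-identical, so reads could be split between them. Cd74, the class II invariant chain, was listed at 2011, 5562 and 3879 FPKM in IEL and 8014, 1170.3 and 2747 in LP (log2 difference 0.25 ± 0.66, adjusted p = 0.913), and 0 of 14 class II genes passed.

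The PA milk libraries had no part in these calls and showed the layer difference in other mice. All 43 genes called higher in IEL under ND had a PA IEL minus PA LP log2 difference above 0, and 62 of the 64 called lower had one below 0, where 50% of all tested genes lay on each side. Without PA replicate 2 of both layers the counts were again 43 and 62, where 52.9% of all tested genes lay above 0 and 46.3% below. The exceptions were Ccl21a, listed at 0 in all 6 PA libraries, and Rnf39, with a PA difference of 1.17. The PA layers did not overlap, in the ND direction, for 13 of the genes called higher and 17 of those called lower, against 4.43% and 4.57% of all tested genes.

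In PA milk, Apoa1 was listed at 2462, 1575 and 11729 FPKM for IEL and 3.11, 160.4 and 9.41 for LP, a log2 difference of 7.55. Hspa1b was listed at 2.91, 0.196 and 10 FPKM for IEL and 434, 65.6 and 635 for LP, a log2 difference of -6.15. Plvap was listed at 11.1, 0.926 and 0.96 FPKM for IEL and 4504, 1.01 and 4458 for LP, so that it was low in PA LP 2, and its difference was -6.58 with and -9.85 without replicate 2. Klf2 had a PA difference of -3.03, and its PA libraries were at 24.4, 57.1 and 34.6 in IEL and 452, 64.2 and 975 in LP. The median PA difference was 3.71 for the enterocyte lipid list and -3.21 for the endothelial list, where the ND medians were 3.98 and -4.61. Over the 37 lists the median of all 6 PA libraries had the sign of the ND median in 24 and the opposite sign in 12. It was 0 in 1, the ILC effector genes.

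The lists closest to the sorted cells were among those with the opposite sign. The PA median was 0.35 for ILC transcription factors (ND -1.39), 0.92 for ILC receptors (ND -0.95) and 0.92 for the gate list (ND -1.28). It was 0.52 for chemokine receptors (ND -1.42), 0.08 for residency and homing genes (ND -0.61) and -0.08 for cytotoxic genes (ND 1.17). Pan-leukocyte, class I, B and plasma cell, mast cell and granulocyte, unfolded protein response and neuron and glia genes were the others, the last with 1 tested gene. Some of these signs depended on PA replicate 2. Without it the PA median of class I genes went from 0.65 to -0.76 (ND -0.32). That of the unfolded protein response went from 0.03 to -0.06 (ND -0.15), so both then had the ND sign. Cell cycle (0.24 to -0.08, ND 0.08) and proteasome genes (0.06 to -0.03, ND 0.04) then had the opposite sign. The differences between the diets in these medians were not tested.

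**Figure D5:**
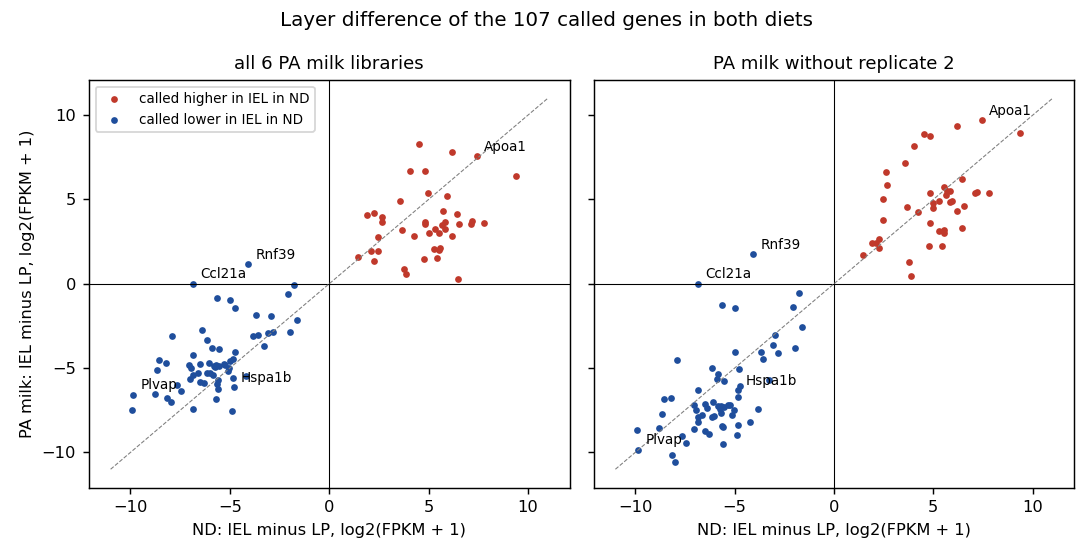
Layer difference (IEL minus LP, log2) of the 107 genes called under ND, on the x axis in ND and on the y axis in PA milk, with all 6 PA libraries and without PA replicate 2. In both panels 105 genes have the same direction in both diets, and the dashed line marks equal differences.

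The difference between the layer contrasts of ND and PA milk was tested in 1 limma fit of all 12 libraries. At an adjusted p-value under 0.05, 0 of the 11194 genes passed (0%), the smallest adjusted p-value was 1, and the unadjusted p-value was below 0.05 for 260 genes (2.32%). No gene's layer difference was therefore shown to be particular to normal milk. Over all tested genes, 156 had IEL above LP without overlap in both diets, which is 13.0% of the 1203 such genes in ND and 31.5% of the 496 in PA milk. In the other direction the 109 shared genes were 9.84% of 1108 in ND and 21.3% of 512 in PA milk, and 26 genes had layers apart in opposite directions.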

How the data were processed

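RNA of sorted ILC3s was amplified with the SMART-Seq v4 kit and sequenced on an Illumina HiSeq. The authors mapped reads to mm10 with TopHat2 2.1.1, Bowtie2 2.2.8.0 and SAMtools 0.1.18 and deposited FPKM values per gene from Cufflinks 2.2.1, with Cuffdiff 2.2.1 also named in the processing notes. The gene annotation was not given in the sources used here. The table of counts deposited by the authors holds a scaled signal, since 98.1% of entries of 500 or more kept the gene's ratio to FPKM within 6%, which shows read numbers scaled per library and then rounded. Depth was estimated from the step between low values, and 91.5% to 96.2% of 52 to 316 low values per library lay within 0.05 of a whole multiple of it.

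FPKM values were tested as log2(FPKM + 1) with limma 3.58.1 (R 4.3.3), with a mean-variance trend, over the 6 ND libraries, IEL minus LP. Differences are given as the log2 difference ± the standard error (SE), with 3 libraries per layer. P-values were two-sided and adjusted by the Benjamini-Hochberg method over 11194 genes with FPKM of 1 or more in at least 3 libraries, and genes under 0.05 are said to pass or to be called. Layers are said not to overlap when all 3 libraries of 1 layer lie above all 3 of the other. The difference between diets was tested over all 12 libraries with 4 group means. Tables and plots were made in Python 3.11.15 (pandas 2.3.3, numpy 2.4.6, matplotlib 3.10.9).

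Groups came from the sample labels. Named genes were the 15 called genes in each direction with the largest difference and a mean FPKM of 10 or more in the higher layer, the 4 most abundant members of each of 37 gene lists, and genes of the gate and of ILC3s; values of some of these are not reported here. All other genes named, and the groups of caveolar, matrix and cytoskeletal genes, were chosen after their values were seen. The members and lists were chosen with earlier results of these data known, so lists are described by counts and medians and not tested. Of the tested list members 12 were matched through an older symbol. Coordinates are from GENCODE vM21 for 960 of 963 genes, and promoters from RefSeq on GRCm38.p6. Scripts were tested on simulated data. Alternatives changed the pseudocount, the filter, the scaling, the libraries in the fit, a replicate block, library weights and the test.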

Additional observations from a re-analysis of the deposited data

Results flagged for a closer look

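Id2, a regulator of the innate lymphoid fate, moved in opposite directions in the diets. Under ND it was listed at 110.2, 217 and 273 FPKM in IEL and 539, 455 and 546 in LP, so every IEL library was below every LP library. In PA milk it was listed at 749.6, 326 and 586 FPKM in IEL and 190.0, 95.2 and 239.6 in LP, so every IEL library was above every LP library. The layer difference in ND minus that in PA milk was -3.12 on the log2 scale. In the limma fit of all 12 libraries this difference had an adjusted p = 1, so the test did not call it. PA IEL 1 held the highest and PA LP 2 the lowest of the 12 values.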

How the results depend on the processing

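None of the 107 called genes changed direction under any alternative that tested it. Because their layers did not overlap, alternatives that left the scaling of the libraries unchanged could not have changed it. The number of calls moved with most alternatives. Against 43 higher and 64 lower in IEL, a pseudocount of 0.1 gave 10 and 34, no filter gave 4 and 18, and requiring 1 FPKM in all 6 libraries gave 53 and 33, where 72 of the called genes were not tested and 61.6% of calls were higher in place of 40.2%. Library weights gave 256 and 285. A fit of all 12 libraries gave 1 and 3, namely Apoa1 against Madcam1, Clu and Ccl21a. Limma-voom on the scaled counts gave 0 and 1, with 677 higher and 573 lower at an unadjusted p under 0.05. Leaving out 1 library gave 3 to 32 higher and 7 to 86 lower, and leaving out both IEL 2 and LP 1, chosen after seeing the data, 59 and 126. The cause of these shifts was not tested.

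Upper quartile scaling (47 and 73), a mean FPKM of 1 or more (39 and 63) and a minimum log2 difference of 1 (43 and 64) stayed within 1.5 times. Scaling on pan-leukocyte genes gave 51 and 52, with 49.5% of calls higher, and moved the median of all genes by 0.208. Deviations of same-numbered libraries from their layer means had correlations of -0.0071, 0.00041 and 0.0086. With 3 libraries per layer these values cannot tell whether same-numbered libraries share mice. The replicate block gave 56 and 60. A count model on whole reads was planned where these could be recovered, and was not run because the scaled and rounded table did not give whole reads for nearly all genes. The difference between diets gave 0 calls under every alternative, with 203 to 593 genes at an unadjusted p under 0.05 and a smallest adjusted p of 0.105 without ND LP replicate 1. The PA direction was that of ND for 105 of the called genes with or without PA replicate 2. Of the list medians, 31 of the values under an alternative moved by more than the spread and 561 did not.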

Other observations

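Genes of protein synthesis and folding had medians slightly below 0, which moved with the scaling. Of 81 cytosolic ribosomal protein genes tested 0 passed, 25 had all IEL libraries below all LP libraries and 1 the reverse. Of all tested genes, 9.9% and 10.7% lay these ways. The ribosomal median log2 difference was -0.33 (-0.26 without IEL 2 and -0.36 without LP 1), against -0.06 over all tested genes. Rpl13 was listed at 1810.4, 1455 and 1772 FPKM in IEL and 2091, 2535 and 2745 in LP (log2 difference -0.55 ± 0.25, adjusted p = 0.392). Scaling on pan-leukocyte genes left the ribosomal median at -0.08. Of 20 genes of the unfolded protein response 6 had all IEL libraries below all LP libraries and 1 the reverse, again with 0 passing. Their median was -0.15 (-0.23 without IEL 2 and -0.17 without LP 1). It became 0.10 under the same scaling, where the median of all tested genes became 0.15. Hspa5, the main chaperone of the endoplasmic reticulum, was listed at 1006, 574 and 660.3 FPKM in IEL and 2023, 1859 and 1105 in LP (log2 difference -1.15 ± 0.34, adjusted p = 0.155).

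Cell cycle, proteasome and cholesterol synthesis genes showed medians near 0, at 0.08, 0.04 and 0.19 on the log2 scale, with 0 passing in each. Chemokine receptors had a median of -1.42 (-0.57 without IEL 2 and -1.36 without LP 1) with 0 of 16 called. Cxcr3 had all IEL libraries above LP, while Ccr7, Cxcr5 and Cxcr7 (Ackr3) had the reverse, against 10.7% and 9.9% of all tested genes. Ccr9, the receptor for Ccl25, was listed at 32.3, 92.9 and 81.6 FPKM in IEL and 52.7, 13.3 and 4.91 in LP with overlapping layers (log2 difference 1.94 ± 0.82, adjusted p = 0.342).

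Mast cell proteases were high in IEL 1 and IEL 3 alone. Mcpt1, the mucosal mast cell protease, was listed at 235, 0 and 472 FPKM in IEL and 0, 0.481 and 0 in LP and Mcpt2 at 86.6, 0 and 253 FPKM in IEL and 0, 0 and 0.126 in LP, too few libraries for a test. Cpa3, the mast cell carboxypeptidase, was present in all IEL libraries at 53.8, 20.5 and 82.9 FPKM in IEL and 0.0579, 6.59 and 9.05 in LP and did not pass (log2 difference 3.42 ± 1.0, adjusted p = 0.15). Of 6 mast cell and granulocyte genes tested 0 passed. Olfm4, a crypt stem cell marker, was likewise listed at 354, 0.0544 and 303 FPKM in IEL and 0.0503, 15.4 and 13.8 in LP (log2 difference 2.93 ± 2.15, adjusted p = 0.624), and Clu was the 1 of 10 tested stem and progenitor genes to pass. Enteroendocrine and tuft cell genes had 4 tested members and neuron and glia genes 1, with 0 passing. Of the lineage antigens of the gate 5 were tested and 0 passed, with a median of -1.55 (0.30 without IEL 2 and -1.79 without LP 1).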
